A study of Mus musculus with 27 samples.

Results

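The liver transcripts of 7 genes that take triglyceride apart, or set how fast this happens, were followed after loss of the histone deacetylase HDAC3, of the sterol sensor SCAP, or of both. The genes were Pnpla2, Pnpla3, G0s2, Abhd5, Lipe, Mgll and Lipa. Chosen with earlier results of these data known, they were taken by name from the deposited RNA table. It lists 22869 genes, and all 7 were found in it. Of these, 6 had enough counts to be tested among 12009 genes, and Pnpla3 did not.

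Neutral lipid in the cell is broken down along a cytosolic and a lysosomal route. On the lipid droplet, adipose triglyceride lipase (the product of Pnpla2) removes the first fatty acid, hormone-sensitive lipase (Lipe) acts mainly on the resulting diacylglycerol, and monoglyceride lipase (Mgll) frees the last fatty acid from glycerol. Adipose triglyceride lipase is switched on by its coactivator CGI-58 (Abhd5) and blocked by the small protein encoded by G0s2. The related protein encoded by Pnpla3 sits on droplets and is known to bind CGI-58. Lysosomal acid lipase (Lipa) hydrolyses triglyceride and cholesteryl esters in the lysosome. In the liver this system decides how much stored triglyceride is released for oxidation and for lipoprotein assembly.

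RNA was sequenced in 17 libraries from livers of C57Bl/6 mice killed 10 days after injection of adeno-associated virus of serotype 8 (AAV8), a vector that reaches mainly hepatocytes, with food freely available. The controls were 6 libraries from floxed mice given AAV8 with GFP, 2 HDAC3 floxed, 2 SCAP floxed and 2 with both floxed alleles. The knockouts were libraries from floxed mice given AAV8 with Cre, 4 HDAC3 floxed (HDAC3 LKO), 4 SCAP floxed (SCAP LKO) and 3 with both (Double LKO). HDAC3 is the enzyme through which the NCoR and SMRT corepressors remove acetyl groups from histones, and SCAP escorts the SREBP transcription factors to the site where they are processed to their active form. All groups came from floxed lines, and mice that received Cre but had no floxed gene are not among these samples, so an effect of Cre and of gene loss cannot be told apart in the comparisons with GFP. Knockouts compared with each other all received Cre but come from different floxed lines, so line and gene loss cannot be told apart there. The labels number the samples as replicates without saying that each is a separate mouse, and p-values therefore measure only how far these samples spread, which may be technical. Which promoter drives Cre is not stated in the labels.

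The controls held 4747602 to 19316642 counts per library, the HDAC3 LKO livers 5158695 to 8672408, the SCAP LKO livers 3546597 to 7788828, and the Double LKO libraries 3736618, 9761092 and 20622671 (these carry the numbers 2, 3 and 4 in the deposited table). Hdac3 was at 34.3 to 40.7 CPM (counts scaled to the size of the library) in controls against 7.46 to 10.6 in HDAC3 LKO and 9.20 to 12.4 in Double LKO, and Scap at 91.2 to 138.5 CPM against 43.9 to 59.03 in SCAP LKO and 45.4 to 50.8 in Double LKO. In both cases the targeted gene was lower in every library labelled as lacking it than in every control. Double LKO library 2 stood apart on the second principal component (45.8 against 1.55 and 8.70 in libraries 3 and 4). Its summed level of 10 hepatocyte markers was 66907 CPM, against 101610 to 136510 in the other 16 libraries.

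Promoters were matched for all 7 genes in a RefSeq table of build GRCm38.p6 and run from 250 bases before to 50 bases after the annotated start. Pnpla2 and G0s2, the lipase and its inhibitor, are shown because they changed together in the data below, and Lipe and Mgll because they share an E-box, a palindrome bound by clock and other basic helix-loop-helix factors. Each is printed 5′ to 3′ on the strand of its gene, with the E-box CACGTG in capitals.
Pnpla2, chr7:141454938-141455237, plus strand: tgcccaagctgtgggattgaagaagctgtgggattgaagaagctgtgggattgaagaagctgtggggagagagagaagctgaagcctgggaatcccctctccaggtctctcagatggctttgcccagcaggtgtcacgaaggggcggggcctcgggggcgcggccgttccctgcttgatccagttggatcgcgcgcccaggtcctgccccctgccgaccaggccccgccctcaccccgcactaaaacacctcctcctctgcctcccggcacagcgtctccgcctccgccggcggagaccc
G0s2, chr1:193273139-193273438, minus strand: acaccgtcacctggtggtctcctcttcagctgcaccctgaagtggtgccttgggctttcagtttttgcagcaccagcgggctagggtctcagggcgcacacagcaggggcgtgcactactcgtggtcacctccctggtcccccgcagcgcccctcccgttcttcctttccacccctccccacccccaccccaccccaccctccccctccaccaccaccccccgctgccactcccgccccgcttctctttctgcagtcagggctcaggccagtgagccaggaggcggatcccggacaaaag
Lipe, the first of 2 listed promoters, chr7:25395938-25396237, minus strand: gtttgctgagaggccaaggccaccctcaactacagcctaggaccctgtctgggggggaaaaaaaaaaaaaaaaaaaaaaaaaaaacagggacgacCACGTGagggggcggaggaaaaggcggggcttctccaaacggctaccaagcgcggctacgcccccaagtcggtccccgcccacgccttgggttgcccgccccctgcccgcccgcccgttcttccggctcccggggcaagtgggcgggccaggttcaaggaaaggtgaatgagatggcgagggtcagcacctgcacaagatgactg
Mgll, the first of 2 listed promoters, chr6:88724162-88724461, plus strand: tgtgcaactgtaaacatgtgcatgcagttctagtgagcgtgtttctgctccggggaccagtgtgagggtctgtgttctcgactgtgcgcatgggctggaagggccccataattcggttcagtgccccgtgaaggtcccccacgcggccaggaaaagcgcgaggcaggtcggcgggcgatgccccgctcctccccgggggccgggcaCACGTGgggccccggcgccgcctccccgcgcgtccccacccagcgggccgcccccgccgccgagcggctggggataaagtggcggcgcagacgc
The E-box begins 155 bases before the start in Lipe and 44 before it in Mgll. Both strands were searched for 3 motifs: the E-box CACGTG, the sterol regulatory element TCACNCCAC bound by SREBP, and the nuclear receptor element AGGTCA. Of 32851 promoter windows of this length, 7.15% hold the E-box, 1.24% the sterol element and 16.3% the receptor element, and no window of these 7 genes holds more than 1 match. Abhd5 holds 1 receptor element on the minus strand, beginning 69 bases before the start. None of the 3 motifs is in the windows of Pnpla2, Pnpla3, G0s2 or Lipa, nor in the second windows of Lipe and Mgll. These are matches of letters, not mapped binding.

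Loss of HDAC3 was accompanied by higher transcripts of every tested gene of the set. The droplet lipases, their coactivator, their inhibitor and the lysosomal lipase all rose, by 1.45-fold (Abhd5) to 4.12-fold (G0s2). In edgeR's quasi-likelihood test 6 of 6 tested genes were higher in HDAC3 LKO than in GFP controls at an adjusted p under 0.05, where 7.88% of all genes tested were higher and 6% lower. All 6 also lay higher in every HDAC3 LKO library than in every control, a pattern met by 7.49% of genes tested. Their median log2 fold change was 0.91, against -0.02 over all genes tested. In whole liver, more cells of a type and more RNA per cell cannot be told apart.

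**Figure D1:**
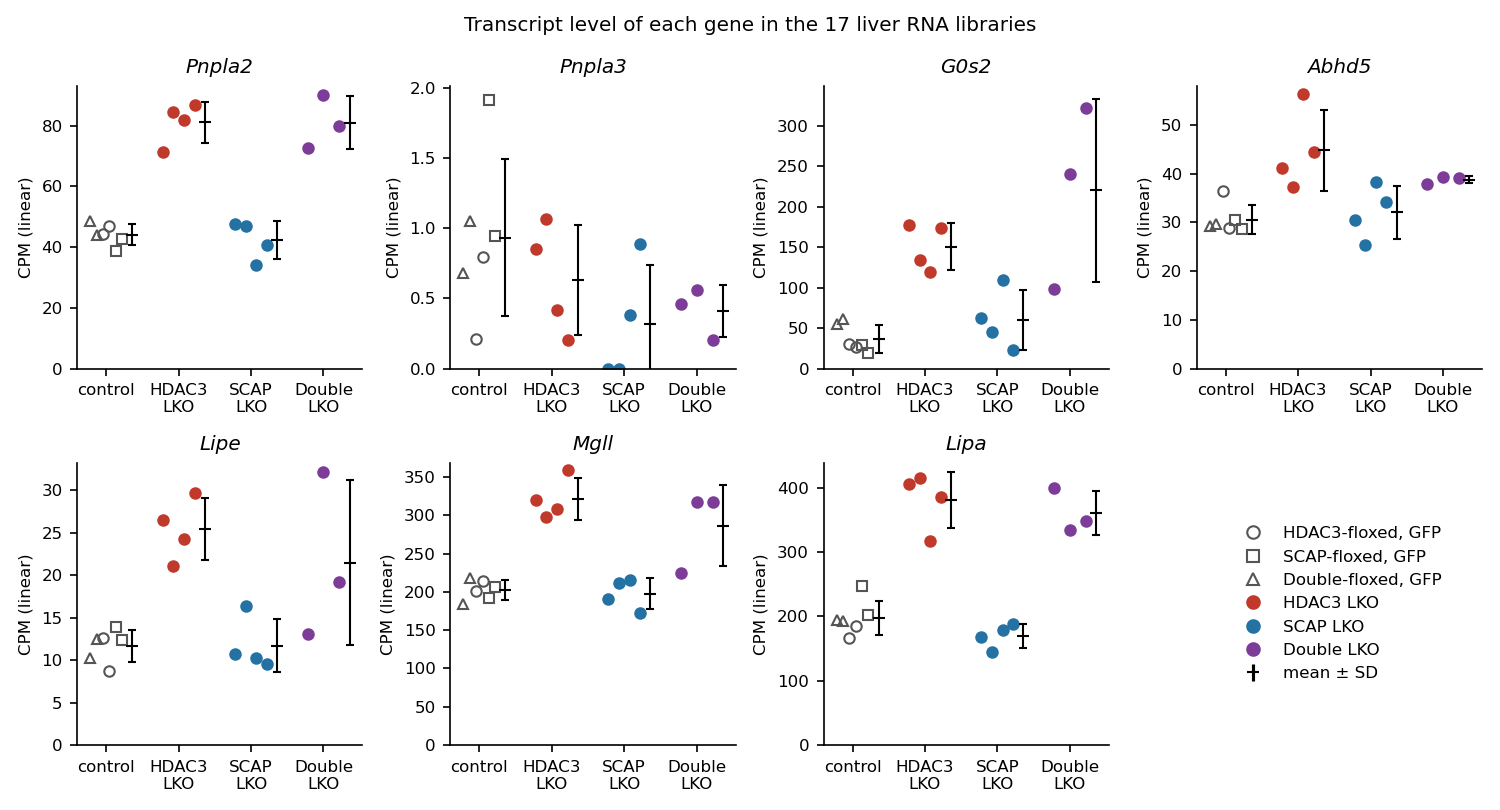
Level of each of the 7 genes in CPM on a linear axis, with 1 point per library, grouped on the x axis as GFP control (open symbols by floxed line), HDAC3 LKO, SCAP LKO and Double LKO; black bars are mean ± SD (n = 6, 4, 4 and 3), and the lower end of the SCAP LKO bar for Pnpla3 lies below the axis. HDAC3 LKO points lie above all control points in every panel but that of Pnpla3, while SCAP LKO points overlap the controls in every panel.

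Pnpla2 encodes the lipase that starts triglyceride breakdown. Its level in the 6 controls ran from 38.5 CPM through a median of 44.0 to 48.5. In HDAC3 LKO replicates 1 to 4 it was 71.3, 84.3, 81.7 and 86.9 CPM. The lowest HDAC3 LKO library was thus well above the highest control, and the 3 floxed control lines lay close together. Means were 44.1 ± 3.48 CPM (SD, n = 6) and 81.0 ± 6.83 (n = 4). The log2 fold change was 0.87 (SE 0.095, edgeR adjusted p = 9.76e-06), with an approximate 95% interval of 0.67 to 1.07. In SCAP LKO replicates 1 to 4 Pnpla2 was at 47.5, 47.1, 34.1 and 40.7 CPM, within or below the control range. Double LKO libraries 2, 3 and 4 held 72.7, 90.2 and 80.0 CPM, all above the controls and around the HDAC3 LKO values. The table lists 3 transcripts of Pnpla2, and the one marked by the authors is a RefSeq non-coding variant. A coding transcript had between 99.3 and 100% of its counts in every group, and another coding one between 91.7 and 96.5%, so the values depend little on which is read.

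G0s2, the inhibitor of that lipase, moved most. Controls ran from 18.8 CPM through a median of 30.0 to 61.6, and the 3 lines differed, with 54.6 and 61.6 CPM in the double-floxed, 30.9 and 26.0 in the HDAC3-floxed and 29.2 and 18.8 in the SCAP-floxed mice. HDAC3 LKO replicates 1 to 4 held 177, 134, 119 and 174 CPM. Every HDAC3 LKO library was above the highest control, with means of 151 ± 28.9 CPM (n = 4) and 36.8 ± 17.1 (n = 6). The log2 fold change was 2.04 (SE 0.371, edgeR adjusted p = 0.00101; interval 1.26 to 2.82). Against the 2 HDAC3-floxed controls alone it was 2.40. SCAP LKO replicates 1 to 4 held 62.2, 45.4, 109.9 and 22.9 CPM, a spread that began inside the control range and ended above it. Double LKO libraries 2, 3 and 4 held 98.2, 240.4 and 322 CPM. Each of these 3 was above every control, and the shallow library 2 was the lowest.

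Abhd5, which encodes the coactivator, rose least. Controls ran from 28.6 CPM through a median of 29.5 to 36.5. HDAC3 LKO replicates 1 to 4 held 41.1, 37.2, 56.4 and 44.4 CPM. The gap between the groups was narrow, since the lowest HDAC3 LKO library lay just above the highest control. The log2 fold change was 0.53 (SE 0.116, edgeR adjusted p = 0.00419; interval 0.29 to 0.78). With the 2 HDAC3-floxed controls alone it was 0.44 and no longer passed (adjusted p = 0.157); the highest control belongs to that line. SCAP LKO replicates 1 to 4 held 30.5, 25.3, 38.2 and 34.1 CPM, on both sides of the controls. Double LKO libraries 2, 3 and 4 held 37.9, 39.3 and 39.0 CPM, close together and just above the controls.

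Pnpla3 was hardly detected. Raw counts in the 6 controls were 4 to 9 per library, in HDAC3 LKO replicates 1 to 4 they were 7, 8, 2 and 1, in SCAP LKO replicates 1 to 4 they were 0, 0, 3 and 7, and in Double LKO libraries 2, 3 and 4 they were 2, 5 and 4. Summed counts were 36, 18, 10 and 11 in the 4 groups. A count of 0 allows a level of up to 3 counts, which was 0.726 and 0.816 CPM in SCAP LKO replicates 1 and 2. With so few counts, a difference between groups can be neither read nor excluded at this depth. Means ± SD were 0.935 ± 0.562 CPM in controls (n = 6), 0.633 ± 0.394 after HDAC3 loss (n = 4), 0.319 ± 0.422 after SCAP loss (n = 4) and 0.408 ± 0.186 after loss of both (n = 3). Without a filter on low counts, edgeR gave log2 differences from controls of -0.22 (adjusted p = 0.926), -0.94 (adjusted p = 0.775) and -1.15 (adjusted p = 0.359) in the 3 knockouts in the same order.

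Lipe encodes hormone-sensitive lipase, which takes the second fatty acid. Controls ran from 8.67 CPM through a median of 12.4 to 13.8, and HDAC3 LKO replicates 1 to 4 held 26.5, 21.0, 24.3 and 29.7 CPM. The groups were well apart, and the log2 fold change was 1.12 (SE 0.197, edgeR adjusted p = 0.000734; interval 0.71 to 1.54). SCAP LKO replicates 1 to 4 held 10.7, 16.3, 10.3 and 9.55 CPM. Double LKO libraries 2, 3 and 4 held 13.1, 32.1 and 19.2 CPM, so that library 2 lay inside the control range and library 3 above every other library.

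Mgll encodes the lipase of the last step. Its controls ran from 184 CPM through a median of 204 to 218, and HDAC3 LKO replicates 1 to 4 held 319.8, 297, 308 and 359.7 CPM. No HDAC3 LKO library came near the controls, and the log2 fold change was 0.66 (SE 0.102, edgeR adjusted p = 0.000211; interval 0.45 to 0.88). SCAP LKO replicates 1 to 4 held 191, 212, 215 and 172 CPM. In Double LKO libraries 2, 3 and 4 Mgll was at 225, 317 and 317 CPM, the first just above the controls and the other two with the HDAC3 LKO livers. The table lists 4 transcripts of Mgll. A variant with few counts held 10.6 to 11.5% of the counts of the marked one in controls, 10.1 to 11.5% with HDAC3 lost, 8.21 to 12.2% with SCAP lost and 9.81 to 11.5% with both lost, so the ranges overlap.

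Lipa encodes the lysosomal lipase and so works outside the droplet route. Controls ran from 166 CPM through a median of 193 to 247, with both highest values in the SCAP-floxed line. HDAC3 LKO replicates 1 to 4 held 406, 414, 317 and 386 CPM. The lowest of these exceeded the highest control, and the log2 fold change was 0.95 (SE 0.110, edgeR adjusted p = 1.8e-05; interval 0.72 to 1.18). SCAP LKO replicates 1 to 4 held 168, 144, 179 and 188 CPM, the lower part of the control range and just under it. Double LKO libraries 2, 3 and 4 held 399, 334 and 349 CPM, and here library 2 was the highest of the 3. The 2 transcripts listed for Lipa carry identical counts.

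**Figure D2:**
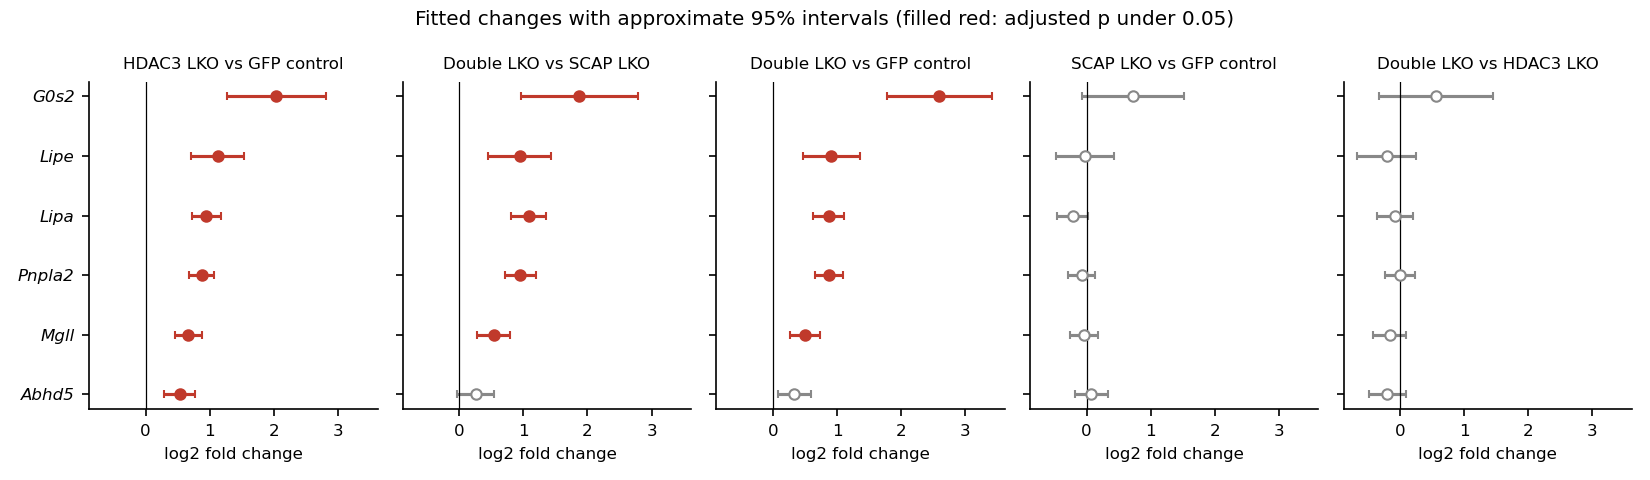
Log2 fold change of the 6 tested genes in 5 comparisons (panels), with approximate 95% intervals; filled red points passed an adjusted p of 0.05 in edgeR. HDAC3 LKO against control holds 6 filled points, both panels of Double LKO against livers that retain HDAC3 hold 5, and the panels of SCAP loss hold none.

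No change in this set was called after loss of SCAP alone. None of the 6 tested genes passed in SCAP LKO against controls, where 0.258% of all genes tested were higher and 0.933% lower. The log2 differences were -0.07 for Pnpla2 (95% interval -0.28 to 0.14), 0.08 for Abhd5 (-0.17 to 0.33), -0.03 for Lipe (-0.48 to 0.43), -0.04 for Mgll (-0.25 to 0.18) and -0.22 for Lipa (-0.45 to 0.02), with edgeR adjusted p from 0.526 to 0.990. These intervals bound the change more tightly for Pnpla2, Mgll and Abhd5 than for Lipe. G0s2 differed by 0.72 (interval -0.08 to 1.52, adjusted p = 0.532), a wide interval that goes with SCAP LKO values from 22.9 to 109.9 CPM. Its mean was 60.1 CPM in SCAP LKO and 24.0 in the 2 SCAP-floxed controls, and it was not called against that line either. In 2 of 4 SCAP LKO libraries G0s2 was above all controls, so a rise is not excluded. The median over the 6 genes was -0.03, against 0.01 over all genes tested. Of the SREBP genes, Srebf1, which encodes SREBP1 and is itself an SREBP target, had a log2 fold change of -3.62 (SE 0.339, edgeR adjusted p = 8.14e-07).

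Livers of the double knockout also had higher transcripts of most of the set. In Double LKO against controls Pnpla2, G0s2, Lipe, Mgll and Lipa rose, 5 of 6 tested genes, where 7.56% of all genes tested were higher and 6.34% lower. G0s2 had a log2 fold change of 2.60 (SE 0.390, edgeR adjusted p = 0.000147), Pnpla2 0.88 (SE 0.102, adjusted p = 8.59e-06), Lipa 0.87 (SE 0.119, adjusted p = 5.5e-05), Lipe 0.91 (SE 0.209, adjusted p = 0.00578) and Mgll 0.50 (SE 0.111, adjusted p = 0.00447). Abhd5 differed by 0.34 (interval 0.07 to 0.60, adjusted p = 0.0863) and did not pass. In the authors' deposited table G0s2 had a log2 fold change of 2.70 and Mgll one of 0.55 with an FDR of 0.20, so Mgll passed here and not there. No overlap with controls was seen for 5 genes, with Abhd5 among them and Lipe not, against 7.09% of genes tested. The median was 0.87, against -0.01 over all genes. Lipe depended on Double LKO library 3: without it the log2 fold change was 0.53 (adjusted p = 0.0861), whereas without library 2 the same 5 genes were called. Against the 2 double-floxed controls alone 3 genes of the set were called. Over all genes 685 were called in that fit, from 1669 with all 6 controls. Lipe was at 0.94 (adjusted p = 0.0961) and Mgll at 0.51 (adjusted p = 0.0958) against these 2 controls. G0s2 averaged 58.1 CPM in these 2 controls, 36.8 in all 6 and 220 in Double LKO, so its rise is smaller against its own line.

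The comparison of Double LKO with SCAP LKO sets HDAC3 loss among livers that were all SCAP floxed and all received Cre. The 2 groups also differ in floxed line. Under GFP, G0s2 already averaged 58.1 CPM in the double-floxed and 24.0 in the SCAP-floxed line, so line and HDAC3 loss cannot be told apart. The same 5 genes were higher, where 4.98% of genes tested were higher and 3.01% lower. The log2 differences were 0.95 for Pnpla2 (SE 0.114, edgeR adjusted p = 6.35e-05), 1.09 for Lipa (SE 0.131, adjusted p = 6.45e-05), 1.87 for G0s2 (SE 0.435, adjusted p = 0.0106), 0.94 for Lipe (SE 0.238, adjusted p = 0.0185) and 0.54 for Mgll (SE 0.121, adjusted p = 0.00868). Abhd5 differed by 0.26 (interval -0.03 to 0.55, adjusted p = 0.290). For Pnpla2, Mgll and Lipa every Double LKO library was above every SCAP LKO library, a pattern seen in 9.13% of genes tested. For G0s2 and Lipe the groups overlapped, since Double LKO library 2 lay below the highest SCAP LKO library in both. Without Double LKO library 4, G0s2 (1.498, adjusted p = 0.0655) and Mgll (0.46, adjusted p = 0.0539) no longer passed, leaving 3. Lipe no longer passed without Double LKO library 3 (0.56, adjusted p = 0.141), SCAP LKO replicate 3 (0.88, adjusted p = 0.0623) or SCAP LKO replicate 4 (0.85, adjusted p = 0.0623).

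Adding SCAP loss to HDAC3 loss gave no call in the set. In Double LKO against HDAC3 LKO 0 of 6 tested genes passed, where 0.108% of genes tested were higher and 1.2% lower. Pnpla2 differed by 0.00 (interval -0.23 to 0.24, edgeR adjusted p = 0.999), which bounds a difference in either direction closely. Lipa differed by -0.08 (interval -0.36 to 0.20), Mgll by -0.16 (-0.42 to 0.09), Abhd5 by -0.20 (-0.48 to 0.09) and Lipe by -0.21 (-0.68 to 0.26). G0s2 differed by 0.56 (interval -0.33 to 1.44, adjusted p = 0.693), with Double LKO values on both sides of the HDAC3 LKO range. These groups differ in floxed line too, and under GFP G0s2 averaged 58.1 CPM in the double-floxed and 28.4 in the HDAC3-floxed line. A contrast setting Double LKO against the added effects of both single knockouts on the log2 scale called 0 of 6, and 0% of all 12009 genes, with 601 at an unadjusted p under 0.05. Its values were 0.08 for Pnpla2, 0.14 for Lipa, -0.13 for Mgll, -0.18 for Lipe, -0.27 for Abhd5 and -0.17 for G0s2, the last with an SE of 0.573.

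Because inhibitor, coactivator and enzyme act on the same step, the inhibitor and coactivator transcripts were also set against that of the lipase within each library, as a description. These are differences between genes in CPM, not adjusted for transcript length, so that the change between groups is meant and not the level. The log2 ratio of G0s2 to Pnpla2 averaged -0.38 ± 0.62 (SD, n = 6) in controls, 0.88 ± 0.35 (n = 4) with HDAC3 lost, 0.30 ± 1.05 (n = 4) with SCAP lost and 1.29 ± 0.79 (n = 3) with both lost. This ratio ran from -1.18 to 0.49 in controls, 0.54 to 1.31 in HDAC3 LKO and -0.83 to 1.69 in SCAP LKO. The double-floxed controls were the highest of the controls at 0.17 and 0.49, and the lowest Double LKO library, at 0.43, fell between them. The ratio of Abhd5 to Pnpla2 went the other way, from -0.53 ± 0.19 in controls and -0.41 ± 0.46 in SCAP LKO to -0.87 ± 0.27 in HDAC3 LKO and -1.06 ± 0.13 in Double LKO. Here the controls ran from -0.73 to -0.27, overlapped by HDAC3 LKO (-1.18 to -0.53), while Double LKO ran from -1.20 to -0.94. Both ratios restate the changes of the single genes given above, and how many gene pairs separate in this way was not counted.

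**Figure D3:**
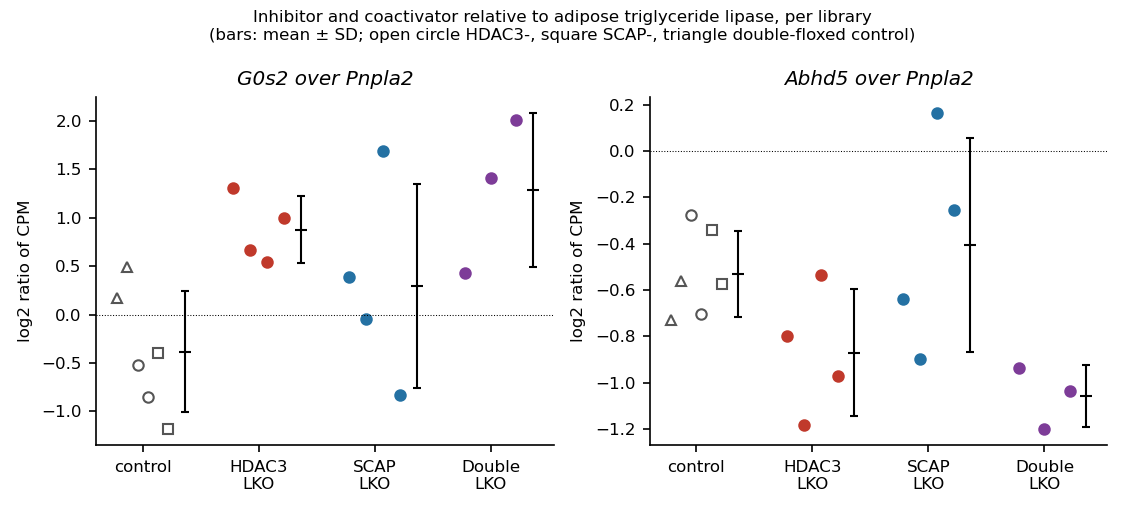
Log2 ratio of CPM within each library, G0s2 over Pnpla2 (left) and Abhd5 over Pnpla2 (right), by group on the x axis; points are libraries, control symbols mark the floxed line and bars are mean ± SD. The mean left ratio is highest in HDAC3 LKO and Double LKO (0.88 and 1.29), though SCAP LKO libraries run from -0.83 to 1.69. The mean right ratio is lowest in HDAC3 LKO and Double LKO (-0.87 and -1.06).

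For the 3 genes whose group means spanned at least 1 on the log2 scale (G0s2 2.53, Lipa 1.16, Lipe 1.12), tested genes with near profiles were sought. Genes of the set and genes with provisional names were skipped, so closer ones among them would not appear. The nearest of the remaining profiles were found by the root mean square difference of centred log2 CPM over the 17 libraries. For G0s2 these were Arntl (0.63), the core clock activator BMAL1, Cyp3a59 (0.638) and Fam89a (0.649). These distances are larger than the 0.17 to 0.231 found for Lipe and Lipa. For Lipe they were Uck1 (0.191), a uridine-cytidine kinase, Ugt3a1 (0.229) and Gch1 (0.231), the first enzyme of tetrahydrobiopterin synthesis. For Lipa they were Lrrc8d (0.17), a subunit of volume-regulated anion channels, Pctp (0.172), a phosphatidylcholine transfer protein, and Sept9 (0.185), a septin.

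Among 30 other neutral lipid hydrolases, 27 were tested and the directions were mixed. In HDAC3 LKO 5 rose and 2 fell, where 7.88% of all genes tested were higher and 6% lower. The median was -0.01, against -0.02 over all genes tested and 0.91 in the set above. Set and lists were both chosen with earlier results of these data known, so this difference does not set the lipases apart. Ces2c, a carboxylesterase, rose from 56.1 ± 16.6 CPM in controls to 212 ± 49.2 (log2 fold change 1.90, SE 0.195, edgeR adjusted p = 4.39e-06). Nceh1, a neutral cholesteryl ester hydrolase, rose by 0.59 (adjusted p = 0.000402), and Abhd4, a lipase for N-acyl phospholipids, by 0.57 (adjusted p = 0.000383). Ces1g, a carboxylesterase, fell by 0.78 (adjusted p = 0.00215), and Ces1c, the most abundant that was not called, differed by 0.10. Carboxylesterase genes are close copies, and how reads were split between them is not known here, so their values are uncertain. In SCAP LKO 0 rose and 1 fell, where 0.258% of all genes tested were higher and 0.933% lower. The gene that fell was Lipg, endothelial lipase, at 46.3 ± 10.5 CPM in controls and 15.1 ± 1.49 in SCAP LKO (log2 fold change -1.62, SE 0.251, adjusted p = 0.000707). In Double LKO 3 rose and 4 fell, where 7.56% of all genes tested were higher and 6.34% lower. Lipg fell by 1.99 (adjusted p = 6.51e-05) and Aadac, an esterase of the endoplasmic reticulum, by 1.04 (adjusted p = 0.000138), while Abhd4 rose by 0.81 (adjusted p = 1.4e-05) and Ces2c by 1.33 (adjusted p = 0.000242).

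Of 25 regulators at the droplet and in cyclic AMP signalling, 21 were tested. In HDAC3 LKO 5 rose and 0 fell (median 0.17), where 7.88% of all genes tested were higher and 6% lower. Plin2, the main droplet coat protein of hepatocytes, was at 368 ± 73.1 CPM in controls and 968 ± 121 in HDAC3 LKO (log2 fold change 1.40, SE 0.179, edgeR adjusted p = 3.9e-05). Plin5, which binds adipose triglyceride lipase and CGI-58, rose by 0.86 (adjusted p = 0.00023). Cidec, a droplet fusion protein, rose by 2.19 (adjusted p = 0.00194), and Plin4, another coat protein, by 0.76 (adjusted p = 0.0387). The other called gene, named after its value was seen, was Adcy9, an adenylate cyclase that makes cyclic AMP (0.45, adjusted p = 0.0425). Gcgr, the glucagon receptor upstream of cyclic AMP, differed by 0.17 (adjusted p = 0.237). In SCAP LKO 0 of 21 passed, where 0.258% of all genes tested were higher and 0.933% lower. Plin2 was at -0.71 (adjusted p = 0.0767) there. In Double LKO 5 rose and 1 fell, where 7.56% of all genes tested were higher and 6.34% lower. Cidec rose by 2.52 (adjusted p = 0.00076), Plin4 by 0.88 (adjusted p = 0.0247), Plin2 by 0.84 (adjusted p = 0.00602) and Prkaca, a catalytic subunit of protein kinase A, by 0.27 (adjusted p = 0.0245). Of 2 phosphodiesterases that degrade cyclic AMP, both named after their values were seen, Pde4b rose by 0.49 (adjusted p = 0.0279) and Pde3b fell by 0.42 (adjusted p = 0.0307).

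All 25 genes of the lysosome and of lipophagy, the delivery of droplets to lysosomes, were tested. In HDAC3 LKO 6 rose, 0 fell and 19 were not called (median 0.08), where 7.88% of all genes tested were higher and 6% lower. In SCAP LKO 1 rose and 0 fell (median 0.04), against 0.258% and 0.933% of all genes. In Double LKO 5 rose and 1 fell (median 0.10), against 7.56% and 6.34%. Sqstm1, the autophagy adaptor p62 and also a target of stress pathways, was at 303 ± 42.6 CPM in controls, 562 ± 12.6 in HDAC3 LKO and 767 ± 285 in Double LKO. It rose by 0.89 (edgeR adjusted p = 0.000363) and 1.34 (adjusted p = 8.18e-06). The lysosomal proteases Ctsb (0.55, adjusted p = 0.000188) and Ctsd (0.40, adjusted p = 0.000909) and the glycosidase subunit Hexa (0.37, adjusted p = 0.00206) rose in HDAC3 LKO. Hexa also rose in SCAP LKO, by 0.38 (adjusted p = 0.00982). In Double LKO the rises were 0.95 for the protease Ctsl (adjusted p = 0.00156), 0.49 for Hexa (adjusted p = 0.000296) and 0.47 for Ctsb (adjusted p = 0.00147). The gene that fell there, also named after its value was seen, was Npc2, a lysosomal cholesterol carrier (-0.36, adjusted p = 0.0274). The membrane protein Lamp1 differed by 0.09, 0.09 and 0.08 in the 3 knockouts and was not called.

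Of 21 transcription factors known to act on lipase genes, 20 were tested. In HDAC3 LKO 4 rose and 1 fell (median 0.10), where 7.88% of all genes tested were higher and 6% lower. In SCAP LKO 0 rose and 2 fell (median -0.03), against 0.258% and 0.933% of all genes. In Double LKO 2 rose and 3 fell (median -0.05), against 7.56% and 6.34%. Pparg, a nuclear receptor that drives Pnpla2 and G0s2 in adipocytes, was at 9.27 ± 3.25 CPM in controls, 15.6 ± 3.87 in HDAC3 LKO and 19.9 ± 7.28 in Double LKO. It rose by 0.80 (edgeR adjusted p = 0.0331) and 1.10 (adjusted p = 0.00602). Cebpb (0.63, adjusted p = 0.0218) and Cebpa (0.41, adjusted p = 0.0279) rose in HDAC3 LKO, and Nr1h3, the sterol receptor LXR alpha, fell by 0.26 (adjusted p = 0.0369) there and by 0.31 (adjusted p = 0.0253) in Double LKO. Srebf2, which encodes SREBP2, fell by 0.97 in SCAP LKO (adjusted p = 7.72e-05) and by 0.78 in Double LKO (adjusted p = 0.000517), and Srebf1 fell by 2.98 in Double LKO (adjusted p = 1.38e-05). Hnf4a differed by -0.03, 0.06 and 0.01 and was not called.

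**Figure D4:**
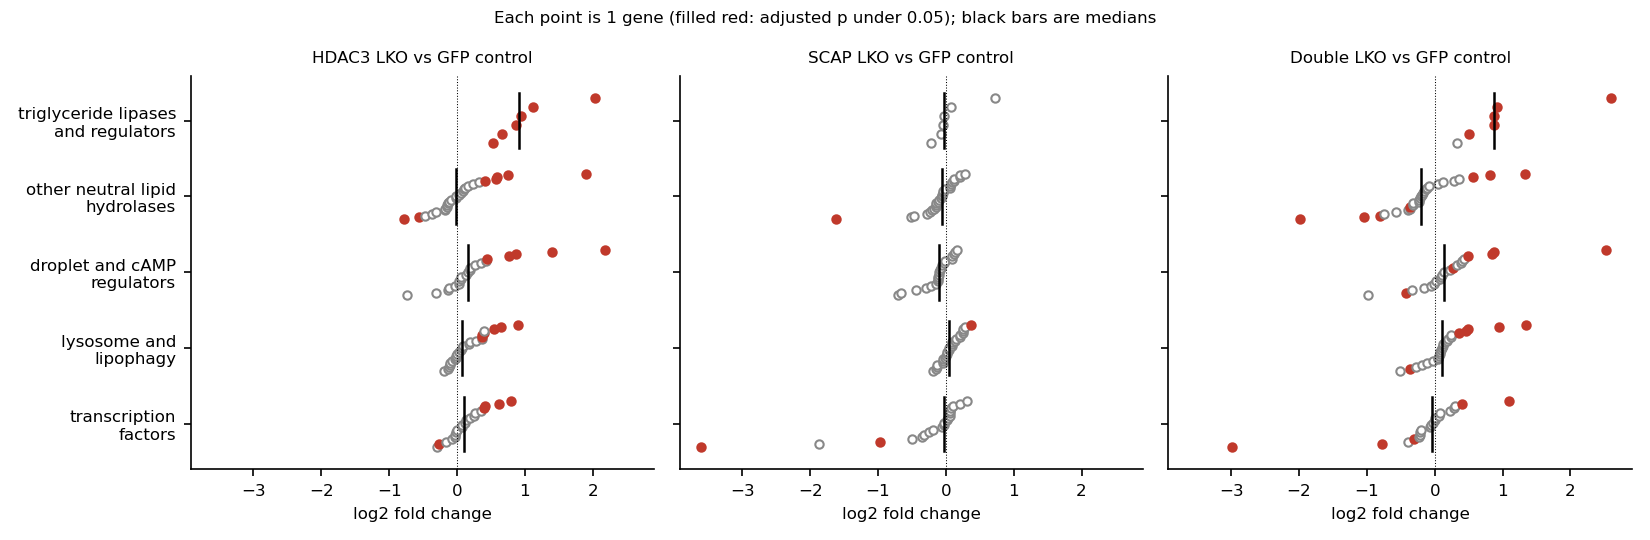
Log2 fold change against GFP controls of each tested gene (1 point a gene) in the set of lipases and regulators and in the 4 lists, for the 3 knockouts (panels); red points passed an adjusted p of 0.05 and black bars are medians. The lipases and regulators lie to the right of 0 in HDAC3 LKO (median 0.91) and Double LKO (0.87), while the medians of the 4 lists stay between -0.20 and 0.17. Set and lists were chosen with earlier results of these data known.

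Several of the lipases are best known from fat tissue, so adipocyte markers were measured in the same libraries. The summed level of 10 such markers was 1185 to 2316 CPM in controls, 995 to 1881 with HDAC3 lost, 700 to 2210 with SCAP lost and 1317 to 2449 with both lost, nearly all of it Car3, which hepatocytes also express. Adipoq was at 0.213 CPM at most, Retn at 0.17, Plin1 at 0.121 and Lep at 0.0505, each at 0 in every library of at least 2 of the 4 groups. In HDAC3 LKO 2 of 4 tested markers rose. Cfd was at 0.622 to 11.6 CPM against 0 to 0.379 in controls (adjusted p = 0.00827) and Fabp4 at 6.64 to 9.86 against 3.39 to 5.68 (adjusted p = 0.0371). In Double LKO Cfd rose (log2 fold change 4.53, adjusted p = 0.0113) and Adrb3 fell (-0.93, adjusted p = 0.045). Summed markers of macrophages and Kupffer cells, which express Lipa and Mgll, were at 346 to 692 CPM in controls, 451 to 596 with HDAC3 lost, 440 to 683 with SCAP lost and 437 to 582 with both lost. None of the 14 tested was called in HDAC3 LKO, and in Double LKO 1 was called, Cd14, with 25.8 CPM at most. Double LKO library 2, which had the highest Lipa of its group and the lowest level of the other 5 tested genes, held 27.6 CPM of Cd68 against 6.52 and 5.56 in libraries 3 and 4. Asgr1, 1 of the 10 hepatocyte markers, fell by 0.27 in HDAC3 LKO (adjusted p = 0.0468). Alas2, an erythroid marker, fell by 1.35 in HDAC3 LKO (adjusted p = 3.58e-05) and by 1.81 in Double LKO (adjusted p = 3.66e-06), and Lum, a fibroblast marker, rose by 0.60 in Double LKO (adjusted p = 0.0263). The part of these cells in the results was not tested.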

How the data were processed

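RNA was measured in 17 liver libraries, and the values were used as the whole-number counts per RefSeq transcript that the authors deposited, not normalized, as the values show. The submitters' processing notes name edgeR, HOMER, Bowtie and build mm9; which program aligned and counted the RNA reads is not known here. Of 28644 transcripts, the 1 per gene marked by the authors was kept. Another 17 per-sample columns were not used. Library totals run from 3546597 to 20622671 counts. The Double LKO, SCAP-floxed and double-floxed libraries carry other numbers in the table than in the labels and were used by group. The authors' deposited table also gives log2 fold changes and FDR values of their own edgeR comparisons, per the file headers, of which the text prints those it credits to that table.

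All genes were tested together with edgeR 4.0.16 in R 4.3.3 (TMM normalization, filterByExpr, 1 quasi-likelihood fit of the 4 groups, 6 contrasts, Benjamini-Hochberg adjustment over 12009 genes, called under 0.05), after a check on simulated data. Adjusted p-values in the text are from this test. Standard errors are the log2 fold change over the square root of F, and intervals use them, so both are approximate. CPM are TMM-scaled counts. Nearest genes used log2 CPM with a prior count of 2. All 18 pairs of libraries within a line and treatment differed by more than sampling noise (chi-square of 2.86 to 40.9 per degree of freedom).

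The 7 genes, the 4 lists (101 genes, all found, 1 by a synonym) and the tests were chosen with earlier results of these data known. Named from the lists were up to 4 called genes of lowest p and the most abundant uncalled one in each comparison with control. Also named were the 3 nearest genes to each member whose group means span at least 1 on the log2 scale, with members and provisional names skipped. Alternatives were DESeq2 1.42.0, limma 3.58.1 voom with quality weights, other size factors, no filter, another transcript, other controls, a replicate block and each library left out. Chromatin samples and peak lists were not analysed here, because no gene positions on mm9 were at hand.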

Additional observations from a re-analysis of the deposited data

Results flagged for a closer look

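Of 21 sets of 4 or 6 libraries examined (7 genes in 3 groups), 2 held a library whose distance to its nearest neighbour was large for the range of its group, by Dixon's 95% criterion; chance gives about 1 in 20. Abhd5 was at 36.5 CPM in HDAC3-floxed GFP replicate 1, against 28.6 to 30.4 in the other 5 controls. Lipe was at 16.3 CPM in SCAP LKO replicate 2, against 9.55 to 10.7 in the other 3.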

How the results depend on the processing

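The number of genes called was 6 in HDAC3 LKO, 0 in SCAP LKO, 0 in Double LKO against HDAC3 LKO and 0 in the interaction when each library was left out in turn. It ran from 4 to 6 in Double LKO against controls and from 3 to 5 in Double LKO against SCAP LKO, with 3 reached without Double LKO library 4. With the 2 double-floxed controls alone 3 genes were called in Double LKO; fewer samples were in that fit. Abhd5 in Double LKO passed with voom quality weights (0.38, adjusted p = 0.0147), in a fit of the 2 groups alone (0.35, adjusted p = 0.0444), without HDAC3-floxed GFP replicate 1 (0.41, adjusted p = 0.0353) and without HDAC3 LKO replicate 3 (0.34, adjusted p = 0.0493). The cause was not tested.

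Values near 0 changed sign. The G0s2 interaction was 0.055 with voom and 0.50 with double-floxed controls, and Pnpla2 in SCAP LKO was 0.047 with SCAP-floxed controls. Leaving out libraries, log2 differences ran from -0.022 to 0.17 (Abhd5), -0.20 to 0.064 (Lipe), -0.081 to 0.024 (Mgll) and -0.13 to 0.023 (Pnpla2) in SCAP LKO, and from -0.073 to 0.071 for Pnpla2 between Double and HDAC3 LKO. The interaction ran from -0.54 to 0.33 (G0s2), -0.56 to 0.028 (Lipe), -0.20 to 0.019 (Mgll) and -0.019 to 0.15 (Pnpla2). DESeq2, other size factors, no filter and another transcript changed no call of these genes. Over all genes, calls in HDAC3 LKO dropped from 1666 to 1086 without HDAC3 LKO replicate 4, and with line-matched controls they were 646, 79 and 685 in HDAC3, SCAP and Double LKO, from 1666, 143 and 1669.

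Samples of equal number showed no clear common deviation (correlations 0.08, 0.02, 0.11 and -0.06 between HDAC3 and SCAP LKO). Pairs of unlike number ran from -0.13 to 0.14. So few pairs cannot decide whether equal numbers mark a shared batch. With a replicate block on the 10 numbered libraries, 5 genes were called in HDAC3 LKO and 0 in SCAP LKO. The share of all genes called with this block was not counted. Abhd5 was 0.26 (adjusted p = 0.232) and -0.22, and Lipe in SCAP LKO 0.13. In the same libraries without the block, added after the data were seen, these were 0.44 (adjusted p = 0.138), -0.016 and 0.073. The planned counts of genes near a peak were not run. Depth limits Pnpla3 most.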
